A study of Mus musculus with 15 samples.

Results

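The Müllerian duct identity factors are transcription factors that build and pattern the embryonic duct from which the oviduct, uterus and upper vagina arise, and 10 symbols were chosen by name: *Pax2*, *Pax8*, *Emx2*, *Hoxa9*, *Hoxa10*, *Hoxa11*, *Hoxb6*, *Hoxd9*, *Hoxd10* and *Hoxd11*. Of these, 4 had a row among the 16729 genes of the expression table: *Pax2* (ENSMUSG00000004231), *Pax8* (ENSMUSG00000026976), *Emx2* (ENSMUSG00000043969) and *Hoxb6* (ENSMUSG00000000690). The other 6, all of them *Hoxa* or *Hoxd* genes, had no row in the table used here and were not analysed here. RNA-seq was performed on mouse endometrial epithelial organoids, three-dimensional cultures grown from the epithelium of the uterus, with and without the action of SMAD2 and SMAD3, the transcription factors activated by TGFβ and activin receptors. The comparison asked how genetic loss of SMAD2/3 and a blocked receptor kinase change gene expression.

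Control organoids came from mice of the genotype *Smad2*flox/flox; *Smad3*flox/flox and *Smad2/3* cKO organoids from mice of the same genotype that also carried *Ltf*cre/+. All mice were adult females of a mixed C57BL/6J and 129S5/SvEvBrd background, so both genotypes carried the floxed alleles. The Cre was expressed from the lactoferrin gene, which is active in the uterine epithelium, and estradiol was given to the mice to induce it. Organoids were cultured in DMSO (vehicle) or in A83-01, an inhibitor of the receptor kinases ALK4, ALK5 and ALK7. The 15 samples formed 4 groups: control + vehicle (n = 3), control + A83-01 (n = 4), *Smad2/3* cKO in vehicle (n = 4) and *Smad2/3* cKO + A83-01 (n = 4).

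PAX8 and its close relative PAX2 are paired-domain factors of the duct epithelium, and PAX8 remains a marker of the uterine, tubal and renal epithelium in the adult. EMX2 is a homeodomain factor without which the urogenital tract does not form. HOX proteins are homeodomain factors whose genes lie in clusters and are used in an order that follows the body axis, and those at the *Hoxa* cluster's posterior end divide the Müllerian tract into oviduct, uterus, cervix and vagina.

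SMAD proteins bind the short motif CAGAC, and its palindromic form GTCTAGAC is the classic SMAD-binding element, so both were searched on both strands in the promoters of the measured factors. RefSeq promoters of 300 bases (GRCm38.p6) were matched for *Pax2*, *Pax8* and *Emx2*. *Pax8* had 1 promoter, which held CAGAC at 2 places and no GTCTAGAC. *Pax2* had 3, of which only the most upstream one held either motif, with CAGAC once and GTCTAGAC once at separate places. The *Emx2* promoter (chr19:59458440-59458739, plus strand) held neither. Of all 32851 promoters in the table, 49.6% held CAGAC and 0.213% held GTCTAGAC. The GC-rich motif GGCGC, found in 36.9% of promoters, gave 3 matches in the *Emx2* promoter, none in the *Pax8* or the most upstream *Pax2* promoter, and 2 and 5 matches in the other *Pax2* promoters. Matches were counted on each strand, so a single GGCGCC counts as 2 and these are not numbers of separate places. Both the most upstream and the middle *Pax2* promoter end before the start of the GENCODE gene, so they belong to RefSeq transcripts only. A match describes letters and shows no binding. The *Pax8* promoter (chr2:24475550-24475849, minus strand) and the most upstream *Pax2* promoter (chr19:44746351-44746650, plus strand) are shown 5′ to 3′ because they are the promoters of the measured factors that hold these motifs, with CAGAC and GTCTAGAC in capitals.
Pax8: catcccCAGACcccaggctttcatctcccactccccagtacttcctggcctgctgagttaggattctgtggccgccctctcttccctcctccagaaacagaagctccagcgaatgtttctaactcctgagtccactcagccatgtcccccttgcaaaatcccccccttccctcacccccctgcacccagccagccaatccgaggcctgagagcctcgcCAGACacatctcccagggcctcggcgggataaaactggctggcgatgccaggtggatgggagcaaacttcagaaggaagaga
Pax2: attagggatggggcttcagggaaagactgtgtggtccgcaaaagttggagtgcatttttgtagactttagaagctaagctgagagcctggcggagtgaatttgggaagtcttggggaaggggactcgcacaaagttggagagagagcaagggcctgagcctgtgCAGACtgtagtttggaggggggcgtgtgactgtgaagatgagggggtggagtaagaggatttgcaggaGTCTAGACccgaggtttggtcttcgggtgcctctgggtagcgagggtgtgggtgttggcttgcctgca

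*Pax8* was the most abundant of the 4 factors and *Pax2* the least in every group. Levels were compared between genes as normalized counts per kilobase of transcript (the mean length of a gene's coding transcripts). In control + vehicle organoids *Pax8* had 3615 ± 331 normalized counts per kb (SD, n = 3), *Hoxb6* 357 ± 35.0, *Emx2* 295 ± 26.8 and *Pax2* 24.4 ± 3.33. Among *Smad2/3* cKO organoids *Pax8* had 5759 ± 949 (SD, n = 4), *Hoxb6* 600 ± 16.8, *Emx2* 270.4 ± 80.7 and *Pax2* 52.5 ± 14.4. The ranges of neighbouring genes in this order did not overlap in any group, although the lowest *Hoxb6* sample in control + vehicle (324) lay close to the highest *Emx2* sample (321). The same order was obtained with the merged exon length of each gene. Among all rows of the table the mean normalized count of *Pax8* lay at the 97.3rd percentile, that of *Hoxb6* at 69.6, that of *Emx2* at 61.7 and that of *Pax2* at 39.8. Over the 15 samples the coefficient of variation was 37.4% for *Pax2*, 26.5% for *Emx2*, 22.7% for *Pax8* and 21.0% for *Hoxb6*.

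Per sample, normalized counts added up to 20241771 at the lowest and 24423127 at the highest, and samples of a group correlated with r of 0.914 to 0.970 across genes. All 6 epithelial markers, *Epcam* and *Krt8* among them, were abundant in every sample, while the ciliated and endothelial lists summed to at most 19.0 and 27.6 normalized counts. The leukocyte list (5 genes) summed to 1315 to 2938 in the control + vehicle samples. Its sum was 3407 to 8762 once A83-01 was added to control organoids, 2117 to 8111 for *Smad2/3* cKO alone and 4032 to 7975 for *Smad2/3* cKO with A83-01, and most of it was *Cd68* except in *Smad2/3* cKO replicate 2. The library of *Smad2/3* cKO replicate 2 stood apart with 3372 for *Lyz2* and 351 for *Adgre1*, macrophage genes that did not exceed 86.9 and 9.01 in the other samples. Unlike the sum of its list, *Lyz2* was lower with A83-01 in control organoids, at 5.24 to 15.1 against 41.2 to 70.8 in control + vehicle. *Smad2* ranged from 1045 to 1335 among control + vehicle samples and from 821 to 924 among *Smad2/3* cKO samples (log2 fold change −0.41, limma adjusted p = 0.0656), and *Smad3* at 1532 to 1741 and 1170 to 1977 (−0.07, adjusted p = 0.827). Whole-gene counts do not show the deleted exons, so they do not check the labels. In these bulk samples fewer cells of a type and less RNA per cell cannot be told apart.

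*Pax8* (chr2:24420560-24475599 of GRCm38, minus strand) was at 5448, 5240 and 4560 normalized counts in the 3 control + vehicle samples. With A83-01 the 4 control samples had 7407, 5905, 8534 and 8890. The *Smad2/3* cKO samples had 9801, 6791, 7327 and 8467, and the *Smad2/3* cKO + A83-01 samples 8709, 10023, 9005 and 9139. All 3 control + vehicle samples thus lay below every one of the other 12. The *Smad2/3* cKO samples overlapped with control + A83-01 samples, and the *Smad2/3* cKO + A83-01 samples overlapped with those of *Smad2/3* cKO alone. Exons of *Pax8* share 6.1% of their 6061 bases with *Gm13415* on the other strand, and the library kit does not keep the strand.

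*Pax2* (chr19:44756045-44837871, plus strand) was low throughout. Its normalized counts were 67.5, 86.9 and 71.4 in control + vehicle and 55.3, 92.1, 137 and 103 in control + A83-01, which overlap. Values in *Smad2/3* cKO organoids were 117, 160.2, 149 and 223, and with A83-01 added 159, 109, 138 and 174. Each *Smad2/3* cKO sample, with or without A83-01, lay above all 3 control + vehicle samples. Only the highest control + A83-01 sample reached into the *Smad2/3* cKO range.

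*Emx2* (chr19:59458372-59465357, plus strand) showed wide spread and no separation of groups. Control + vehicle samples had 664, 722 and 602 normalized counts and control + A83-01 samples 450.0, 760.2, 500.2 and 349. The *Smad2/3* cKO samples had 445, 866, 539 and 581, and the *Smad2/3* cKO + A83-01 samples 726, 319, 575 and 556. Each group overlapped with every other one. The highest value, 866, was in *Smad2/3* cKO replicate 2, the library with the macrophage genes. Of the exon bases of *Emx2*, 264 of 3002 (8.8%) are shared with the antisense gene *Emx2os*, which had no row. Within these shared bases, reads of *Emx2os* cannot be told from those of *Emx2*.

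*Hoxb6* (chr11:96292476-96301569, plus strand) followed the groups with little overlap. Its normalized counts were 580.2, 647 and 532 in control + vehicle, 704, 763, 772 and 840 in control + A83-01, 959, 967, 993 and 1020.0 in *Smad2/3* cKO and 966, 864, 897 and 1165 in *Smad2/3* cKO + A83-01. Control + vehicle samples lay lowest, control + A83-01 samples came next without overlap, and all 8 *Smad2/3* cKO samples lay above both. The *Smad2/3* cKO groups with and without A83-01 overlapped.

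**Figure D1:**
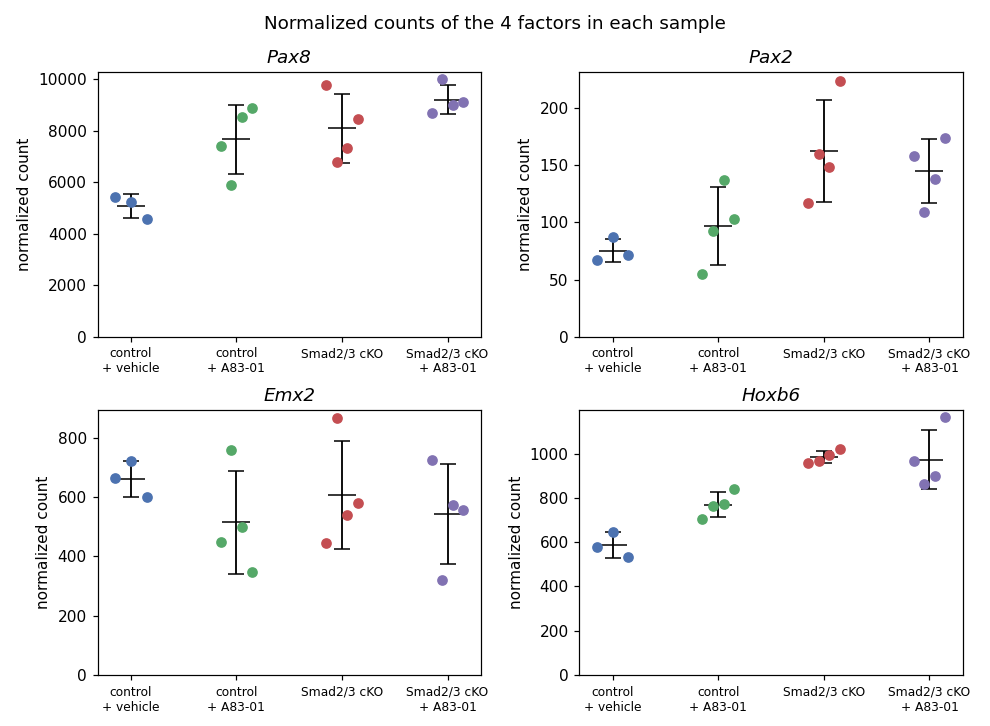
Normalized counts (y axes, from 0) of *Pax8*, *Pax2*, *Emx2* and *Hoxb6* in each of the 15 samples, by group, with the group mean and SD. The 3 control + vehicle samples of *Pax8* and *Hoxb6* lie below all other samples, whereas the groups overlap for *Emx2*.

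Genetic loss of SMAD2/3 went with higher *Hoxb6*: *Smad2/3* cKO organoids had 985 ± 27.6 normalized counts (SD, n = 4) against 586 ± 57.5 (SD, n = 3) in control + vehicle. The log2 fold change on the scale of normalized count + 1 was estimated at 0.75 (SE, the standard error, 0.13, 95% interval 0.45 to 1.05, limma adjusted p = 0.00607), a 1.68-fold rise. To pass the thresholds a gene needed an adjusted p below 0.01 together with a fold change of more than 1.4 or the matching decrease, and *Hoxb6* was the only 1 of the 4 factors to pass. In this comparison 4.08% of the 13149 genes tested passed as higher and 3.30% as lower, and a count of 1 among 4 is too small to set apart from these shares. *Pax8* was at 8096 ± 1334 against 5083 ± 465, which is 0.66 (SE 0.16) on the log2 scale with an adjusted p of 0.0186. *Pax2* was at 162 ± 44.6 against 75.3 ± 10.3, with the largest estimate of the 4, 1.07 (SE 0.30, 95% interval 0.40 to 1.74), and an adjusted p of 0.0357. Both lay short of the threshold. Of the 4 factors 3 had an unadjusted p below 0.05 by limma, as did 33.7% of all genes. *Emx2* was at 608 ± 181 against 662 ± 60.1, and its log2 fold change of −0.16 had a 95% interval of −0.67 to 0.35 (adjusted p = 0.648).

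The *Hoxb6* call was lost when any sample was left out, with adjusted p-values of 0.0255, 0.0159 and 0.0209 without control + vehicle replicates 1, 2 and 3 and of 0.0161, 0.0143, 0.0130 and 0.0219 without *Smad2/3* cKO replicates 1, 2, 3 and 4. The log2 fold change stayed between 0.68 and 0.82 in these 7 fits, and it was 0.76 without the library that held the macrophage genes. In that fit *Pax8* had 0.74 (adjusted p = 0.0173), *Pax2* 1.06 (adjusted p = 0.0720) and *Emx2* −0.35 (adjusted p = 0.223).

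With A83-01, control organoids had 769 ± 55.8 normalized counts of *Hoxb6* (SD, n = 4) and 7684 ± 1344 of *Pax8*, but no factor passed the thresholds by limma, and 2 of 4 had an unadjusted p below 0.05. Of all 13009 genes tested 1.19% passed as higher and 1.08% as lower, and 22.2% had an unadjusted p below 0.05. The log2 fold change was 0.58 for *Pax8* (95% interval 0.18 to 0.99, adjusted p = 0.0894) and 0.39 for *Hoxb6* (0.02 to 0.77, adjusted p = 0.203). *Pax2*, at 97.0 ± 33.8, had 0.30 (−0.55 to 1.14, adjusted p = 0.707), and *Emx2*, at 515 ± 175, had −0.42 (−1.02 to 0.18, adjusted p = 0.408). In each of the 3 pairs of control samples that share a label number, *Pax8* and *Hoxb6* were higher in the sample with A83-01. Any other pairing would give the same, because for both genes all control + vehicle samples lay below all control + A83-01 samples. Comparisons (1) A83-01 in control organoids and (2) *Smad2/3* cKO against control share the 3 control + vehicle samples, so their estimates are not independent.

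Adding A83-01 to *Smad2/3* cKO organoids gave small estimates for all 4 factors. The log2 fold change was 0.20 for *Pax8* (95% interval −0.10 to 0.50), −0.14 for *Pax2* (−0.72 to 0.43), −0.18 for *Emx2* (−0.79 to 0.44) and −0.03 for *Hoxb6* (−0.31 to 0.26). No factor passed by limma and none had an unadjusted p below 0.05. Of all 12998 genes, 0% passed as higher and 0% as lower, while 4.26% had an unadjusted p below 0.05.

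With A83-01 present in both genotypes, *Smad2/3* cKO organoids had 973 ± 135 normalized counts of *Hoxb6* (SD, n = 4) against 769 ± 55.8 (SD, n = 4) in control organoids. The samples of *Hoxb6* did not overlap, but at 0.33 (SE 0.15) on the log2 scale the difference had an adjusted p of 0.526. *Pax2* had 0.63 (SE 0.32, adjusted p = 0.595), *Pax8* 0.28 (adjusted p = 0.634) and *Emx2* 0.08 (adjusted p = 0.958). No factor passed by limma or had an unadjusted p below 0.05, and of all 12915 genes 0.0232% passed as higher, 0% as lower and 9.52% had an unadjusted p below 0.05.

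Whether A83-01 acted differently in the 2 genotypes was tested in 1 fit of all 15 samples. For *Hoxb6* the effect in *Smad2/3* cKO minus that in control organoids was −0.42 on the log2 scale (95% interval −0.81 to −0.03, limma adjusted p = 0.299), for *Pax8* −0.38 (adjusted p = 0.464), for *Pax2* −0.44 (adjusted p = 0.722) and for *Emx2* 0.24 (adjusted p = 0.861). None passed the thresholds and 1 of 4 had an unadjusted p below 0.05, while of all 13066 genes 0.0995% passed as higher, 0.452% as lower and 14.3% had an unadjusted p below 0.05.

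**Figure D2:**
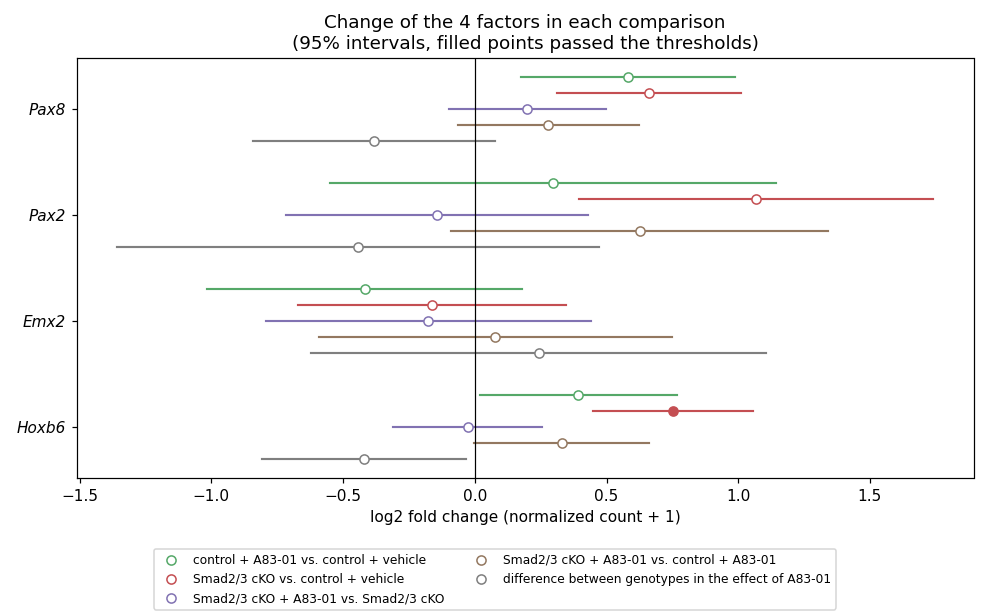
Log2 fold change (x axis, normalized count + 1) of the 4 factors in the 4 comparisons and, in grey, of the *Smad2/3* cKO response to A83-01 minus the control response, with 95% intervals from limma. The only filled point, which passed the thresholds, is *Hoxb6* in *Smad2/3* cKO vs. control + vehicle at 0.75.

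The neighbours of *Hoxb6* in the *Hoxb* cluster were expressed at very different levels. Of the 32 other *Hox* genes listed, 9 had a row, and 7 of these, *Hoxb2* to *Hoxb5* and *Hoxb7* to *Hoxb9*, passed the filter of a mean normalized count of at least 10. *Hoxb7* was the most abundant, with 849 ± 62.9 normalized counts per kb in control + vehicle and 1024 ± 118 in organoids of the *Smad2/3* cKO. *Hoxb6* came next in every group, and *Hoxb2* followed with 197 ± 3.80 and 246 ± 15.4 per kb. *Hoxb5* had 65.7 ± 20.3 and 86.1 ± 20.3 per kb, and *Hoxb3*, *Hoxb4*, *Hoxb8* and *Hoxb9* had group means of 11.7 to 33.7 per kb. Reads of overlapping transcripts within the cluster may be split between neighbours.

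No other *Hoxb* gene passed the thresholds in any comparison by limma, and none of the 7 had an unadjusted p below 0.05. Against control + vehicle, *Smad2/3* cKO organoids gave a median log2 fold change of 0.32 over the 7, against 0.00 over all genes, with 5 positive and 2 negative. *Hoxb7* had 0.27 (95% interval −0.05 to 0.58, adjusted p = 0.219) and *Hoxb2* 0.32 (−0.04 to 0.68, adjusted p = 0.20), while *Hoxb9*, at the 5′ end of this group, had −0.79 (−2.08 to 0.51). The interval of *Hoxb7* overlaps with that of *Hoxb6*, so the 2 changes were compared within each sample.

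The ratio of *Hoxb6* to *Hoxb7* counts, a measure chosen after the values were seen and free of library scaling, was 0.448 to 0.627 in control + vehicle and 0.490 to 0.620 in control + A83-01. The ratio in *Smad2/3* cKO was 0.654 to 0.890 and with A83-01 added 0.631 to 0.808. The genotypes did not overlap, and the log2 ratio was 0.49 higher in *Smad2/3* cKO than in control + vehicle and 0.29 higher in *Smad2/3* cKO + A83-01 than in control + A83-01. Each difference had a two-sided exact permutation p of 0.0286, the smallest these group sizes can give. After adjustment over the 8 ratio comparisons made, both were 0.114. A83-01 itself moved the ratio by 0.12 in control and −0.09 in *Smad2/3* cKO organoids (both exact permutation p = 0.514). The other ratio tested, *Pax8* to *Pax2*, ran from 60.3 to 80.8 among control + vehicle samples and from 62.2 to 134 with A83-01 added. The *Smad2/3* cKO samples had 37.9 to 83.7 alone and 52.4 to 91.8 with A83-01, and the groups overlapped in all 4 comparisons (exact permutation p = 0.257 to 0.429).

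**Figure D3:**
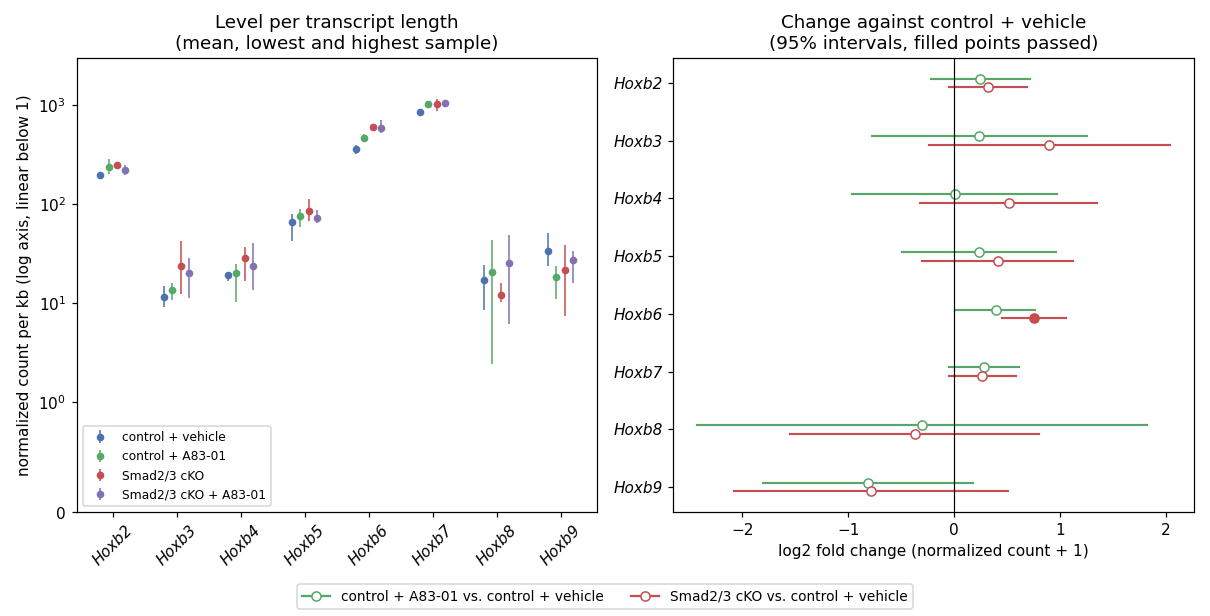
Left, normalized counts per kb (log axis, linear below 1) of *Hoxb2* to *Hoxb9* in cluster order, as mean with lowest and highest sample of each group. Right, log2 fold change against control + vehicle with 95% intervals, in which *Hoxb6* in *Smad2/3* cKO is the only filled point, having passed the thresholds.

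HOX proteins bind DNA together with TALE homeodomain partners, the MEIS proteins among them, and all 9 genes listed were measured. In *Smad2/3* cKO against control + vehicle 0 of 9 passed as higher and 1 as lower, where 4.08% and 3.30% of all genes did, and the median log2 fold change was −0.53 against 0.00 over all genes. The gene that fell was *Meis3*. It had 828, 995 and 649 normalized counts in control + vehicle and 207, 333, 286 and 127 in *Smad2/3* cKO, without overlap, a decrease estimated at −1.86 in log2 (SE 0.33, adjusted p = 0.00584). With A83-01 control organoids had 330, 302, 215 and 436, also below all control + vehicle samples (−1.38, adjusted p = 0.0187), which is short of the threshold. The *Meis3* call was lost without control + vehicle replicate 1 (adjusted p = 0.0285), 2 (0.0312) or 3 (0.0109) or *Smad2/3* cKO replicate 1 (0.0157). *Meis1*, named after its values were seen, had a log2 fold change of −0.53 in *Smad2/3* cKO (adjusted p = 0.0797). Not all 9 genes went down: 7 estimates were negative and 2 positive, the highest at 0.89. In the other comparisons none of the 9 passed by limma, and 3 of 9 had an unadjusted p below 0.05 with A83-01 in control organoids (22.2% of all genes).

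A list of 28 other genes of Müllerian duct formation and patterning held 23 with a row and 18 that were tested in *Smad2/3* cKO against control + vehicle, of which 1 passed as higher and 1 as lower, where 4.08% and 3.30% of all genes did. Its median log2 fold change was −0.36, with 5 positive and 13 negative. *Vangl2*, a planar cell polarity gene needed for the shape of the uterine epithelium, had 372.7, 251 and 366 normalized counts in control + vehicle and 82.2, 65.7, 104 and 58.0 in *Smad2/3* cKO. The estimate in log2 was −2.09 (SE 0.29, adjusted p = 0.00239), and the call was lost only without control + vehicle replicate 1 (adjusted p = 0.0156) among the samples left out. With A83-01 it had 207, 98.7, 107 and 72.2 in control organoids (−1.52, adjusted p = 0.0436).

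*Trp63*, which encodes the p63 factor of squamous and vaginal epithelium, was the gene that passed as higher. It was at 0, 0 and 4.91 normalized counts in control + vehicle and at 26.6, 49.9, 25.6 and 109 in *Smad2/3* cKO (adjusted p = 0.00714). *Trp63* reached the required mean of 10 only through its *Smad2/3* cKO samples, so a gene chosen in this way had to differ, and its call supports nothing further. The size of its change depends on the pseudocount because the control values lie near 0, and with a pseudocount of 0.1 or 10 the adjusted p was 0.0143 or 0.0109. The call was kept without control + vehicle replicate 3 (adjusted p = 0.00434) and lost without replicate 1 (0.0311) or 2 (0.0308) of that group or *Smad2/3* cKO replicate 1 (0.0154), 2 (0.0199), 3 (0.0111) or 4 (0.0277). Values were 39.1, 46.3, 62.8 and 82.2 in *Smad2/3* cKO + A83-01, and in control + A83-01 they were 0, 4.50, 47.0 and 24.5. The other 2 squamous markers tested had estimates in the opposite direction and did not pass. *Krt6a*, a keratin of stratified epithelium, had 65.1 to 209 normalized counts in control + vehicle and 9.50 to 69.2 in *Smad2/3* cKO (log2 fold change −2.61, adjusted p = 0.0316), and *Krt13*, another such keratin, had −2.45 (adjusted p = 0.194). The remaining markers of the list, *Krt5* and *Krt14*, were too low to be tested in this comparison, and their directions differed. *Krt5*, a basal keratin, did not exceed 30.6 in any sample. Its mean was 0.612 for control + vehicle, 9.41 for *Smad2/3* cKO (where replicate 2 had 0) and 20.9 for *Smad2/3* cKO + A83-01. Control + A83-01 organoids averaged 7.81. *Krt14* was highest for control + vehicle (mean 14.0), against 2.47 for *Smad2/3* cKO, 0.524 for control + A83-01 and 1.00 for *Smad2/3* cKO + A83-01.

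Several genes of the patterning list, named here after their values were seen, had large estimates short of the threshold in *Smad2/3* cKO. *Wnt7a*, a uterine epithelial signal that patterns the Müllerian tract, had 2137, 2235 and 1155 normalized counts in control + vehicle and 769, 95.7, 925 and 161 in *Smad2/3* cKO, without overlap (log2 fold change −2.44, adjusted p = 0.04998). *Dlx5*, a homeobox gene active in the uterine epithelium, had 1388 to 1877 against 189 to 832, also without overlap (−1.87, adjusted p = 0.0199). *Sox17*, an epithelial transcription factor, had −1.49 (adjusted p = 0.0281). In the same comparison 6 of the 18 genes had an adjusted p below 0.05, as did 19.0% of all genes. With A83-01 in control organoids none of 18 passed by limma and 9 had an unadjusted p below 0.05 (22.2% of all genes), and the median log2 fold change was −0.50 against −0.02 over all genes.

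**Figure D4:**
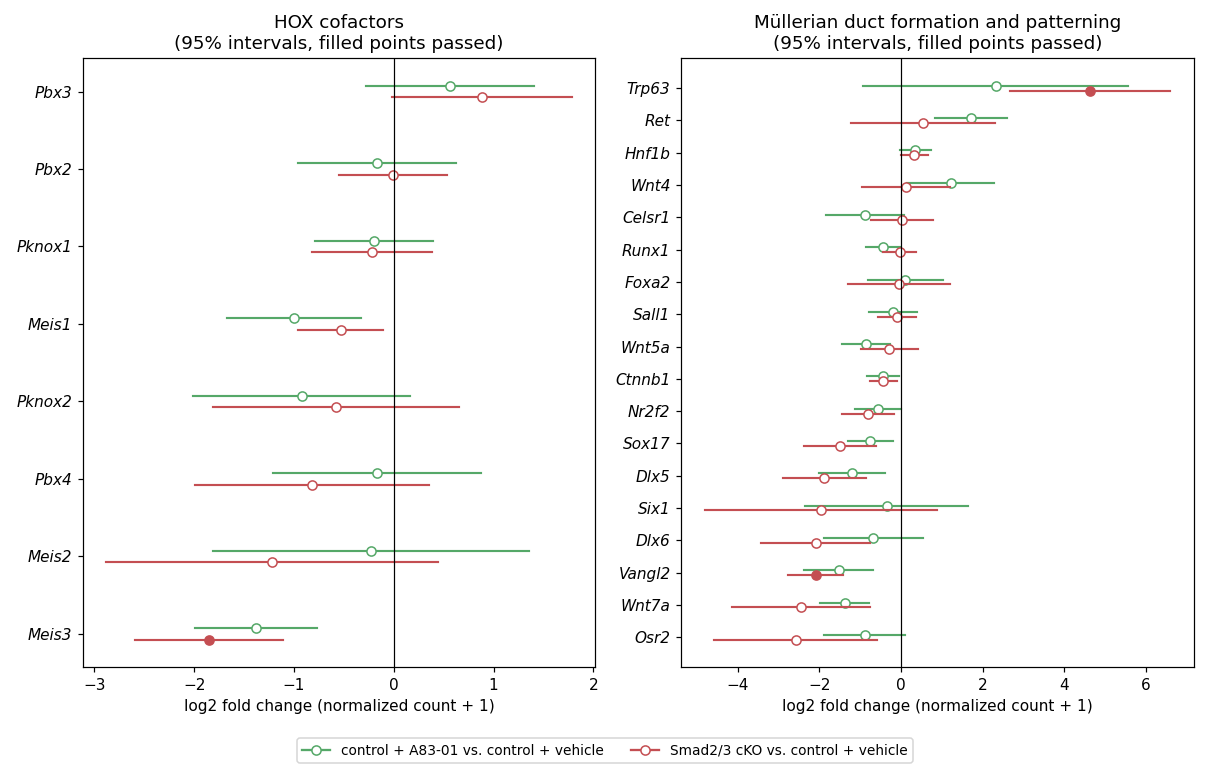
Log2 fold change (x axes, normalized count + 1) with 95% intervals of HOX cofactor genes (left) and of the patterning genes tested (right) in both comparisons with control + vehicle. Filled points passed the thresholds, which are *Meis3*, *Vangl2* and *Trp63* in *Smad2/3* cKO.

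Markers of other cells moved in the same comparisons. *Ptprc*, the common leukocyte antigen, had 12.5 to 38.5 normalized counts in control + vehicle and 123 to 309 in *Smad2/3* cKO (log2 fold change 3.33, adjusted p = 0.00228), and *Acta2*, a smooth muscle actin, fell by 3.12 on the log2 scale (adjusted p = 0.00841). The only other smooth muscle gene tested, *Tagln*, had an estimate in the opposite direction, 0.44 (adjusted p = 0.512). Of the 5 leukocyte genes tested in this comparison, 4 had positive estimates and 1 had a negative estimate (−0.37), and only *Ptprc* passed. The *Ptprc* call was lost without control + vehicle replicate 1 (adjusted p = 0.0111) or 2 (0.0133). Of the 7 fits with a sample left out, the *Acta2* call was kept only without *Smad2/3* cKO replicate 2 (0.00894), and the adjusted p in the others was 0.0107 to 0.0465. Over all 17 alternatives the *Acta2* call was lost in 12. The stromal list (9 of 10 genes with a row) summed to 37.0 to 203 in control + vehicle and 22.8 to 44.9 in *Smad2/3* cKO, and the smooth muscle list (4 of 5) to 73.9 to 219 and 36.7 to 62.9, a difference that lay mostly in *Acta2* (53.6 to 176 and 4.74 to 21.0). The epithelial list had a median summed level of 266392 in control + vehicle, 234532 in control + A83-01, 141633 in *Smad2/3* cKO and 173685 in *Smad2/3* cKO + A83-01, with none of its 6 genes past the thresholds. In *Smad2/3* cKO against control + vehicle 5 of the 6 estimates were negative and 1 positive. By limma 2 genes had an adjusted p below 0.05 (lowest 0.0118), where 19.0% of all genes did. *Epcam* did not fall, with means of 23268 in control + vehicle and 24265 in *Smad2/3* cKO. With A83-01 in control organoids no leukocyte or smooth muscle gene passed by limma. Of 4 leukocyte genes tested there, 3 had positive estimates and 1 a negative one. Of these 4, 3 had an unadjusted p below 0.05, as did 22.2% of all genes. The 2 smooth muscle genes tested had negative estimates, the lowest −2.43, with a lowest adjusted p of 0.0308. In *Smad2/3* cKO the only stromal gene tested had −3.70 (limma adjusted p = 0.0398), short of the threshold. The part of these marker genes in the results of the 4 factors was not tested.

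The genes whose log2 levels followed each factor most closely over the 15 samples were sought among 11318 genes with a mean of at least 50. They were *Haus4* (Pearson r = 0.970), *Faap24* (0.963) and *Ipmk* (0.960) for *Pax8*, and *Atf6* (0.932), *Svopl* (0.925) and *D630045J12Rik* (0.922) for *Pax2*. For *Hoxb6* they were *Creg1* (0.935), *Zfp931* (0.931) and *Cog6* (0.928), and for *Emx2* *Clcn3* (0.904), *Ctr9* (0.902) and *Marf1* (0.891). The values are descriptions, since the samples share groups, label numbers and library scaling and the genes were the highest of many. None of these genes is itself one of the 10 factors.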

How the data were processed

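RNA-seq was analysed in 15 organoid samples of 4 groups taken from the sample labels. The deposited values, of the unit named signal, are normalized counts: per the submitters' processing notes and methods the authors made cDNA with SMART-Seq v4, a kit that does not keep the strand, quantified reads with Salmon 1.4.0 on GRCm39 and used DESeq2 1.32.0. The median ratio to the geometric mean was 1.01137 in every sample, as size factors give. Positions and lengths are from GENCODE (GRCm38), and 16697 of 16729 rows matched a symbol. Sums per sample, 20241771 to 24423127, are of normalized values, so intervals for counting error were not given.

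limma 3.58.1 (R 4.3.3; lmFit, then eBayes with trend) was run for each comparison on its 2 groups alone, on log2(normalized count + 1) and on genes averaging 10 or more there, with Benjamini-Hochberg adjustment over all genes tested and the thresholds of the study's methods. The code was tested on simulated data with 200 genes changed. Replicates of control + vehicle and control + A83-01 that share a number also share a label number (367, 368 and 395). They deviated together (r = 0.423, 0.409 and 0.354), but a shared mouse is not stated. The replicate block paired them as an alternative, while the values reported are from the fits without a block. Label numbers 395 and 396 differ, but control + vehicle replicate 3 and control + A83-01 replicate 4 had r = 0.347. By r alone the third pair is therefore not set apart. *Smad2/3* cKO replicate 1 and *Smad2/3* cKO + A83-01 replicate 2, with label numbers 367 and 371, had r = 0.394. An r of this size therefore does not by itself mark a pair. Control + vehicle replicate 1 and *Smad2/3* cKO replicate 1 also share the number 367 across genotypes (r = 0.077), so what a label number marks is not given. *Smad2/3* cKO replicate 2 and *Smad2/3* cKO + A83-01 replicate 1 also share a label number (369) under different replicate numbers (r = 0.355), and no fit paired them. Otherwise the labels do not tell which cultures or mice the samples share, and p-values measure the spread between these samples.

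The members and lists were chosen with earlier results of these data known. Named are the 10 factors, list genes past the thresholds (at most 4 per list and comparison), other *Hox* and *Pax* genes with a mean of at least 10, the 3 genes most like each factor, *Smad2* and *Smad3*. Beyond this rule, *Meis1*, *Wnt7a*, *Dlx5*, *Sox17* and marker genes of other cells were named after their values were seen. The alternatives tried were quantile normalization, other pseudocounts (0.1, 10), another minimum (none, 50), eBayes without trend, an adjusted p below 0.05, all 4 groups in the fit, the replicate block, leaving out each sample and, added after seeing the data, whether the label number is below 390. All *Smad2/3* cKO + A83-01 samples lie below 390 (369 to 373), while every other group has numbers on both sides. Comparisons with that group are therefore partly confounded with the number series. A gene of the HOX cofactor list is counted but not reported here by name or drawn. No *Pax* or *Emx* relative and no antisense gene at these loci had a row.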

Additional observations from a re-analysis of the deposited data

How the results depend on the processing

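In *Smad2/3* cKO vs. control + vehicle the number of factors past the thresholds, 1, was 0 with eBayes without trend, 0 with the replicate block, 3 at an adjusted p below 0.05 (*Hoxb6*, *Pax8* and *Pax2*), 2 with all 4 groups in the fit (*Hoxb6*, and *Pax8* at an adjusted p of 0.00883) and 0 with each of the 7 samples left out in turn. In the main fit 19.0% of all 13149 genes had an adjusted p below 0.05, in either direction and at any fold change. Counts among 4 factors are too small to set apart from such shares. Over all 17 alternatives *Hoxb6* had a log2 fold change of 0.68 to 0.82 and an adjusted p of 0.00135 to 0.0411. In the other comparisons and in the difference between genotypes the number stayed 0 under every alternative run.

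No estimate of a factor changed sign in either comparison with control + vehicle or in the difference between genotypes. Those that did were close to 0. In *Smad2/3* cKO + A83-01 vs. *Smad2/3* cKO the label number series gave 0.0605 for *Pax2* and 0.00464 for *Hoxb6*, and leaving out samples gave −0.287 to 0.0218 for *Pax2*, −0.117 to 0.0264 for *Hoxb6* and −0.334 to 0.0600 for *Emx2*. In *Smad2/3* cKO + A83-01 vs. control + A83-01 *Emx2* had −0.164 with the label number series and −0.0890 to 0.314 with samples left out. The cause was not tested.

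The replicate block took *Hoxb6* in *Smad2/3* cKO vs. control + vehicle to an adjusted p of 0.0411 (log2 fold change 0.73) and *Meis3*, *Trp63* and *Vangl2* to 0.0162, 0.0443 and 0.0157, and *Ptprc* and *Acta2* to 0.0260 and 0.0462. Same-numbered samples of these groups differ in genotype and did not deviate together (r = 0.077, 0.077 and 0.015), so no pairing was taken, although the replicates numbered 1 carry the same label number. Between the *Smad2/3* cKO groups the same numbers had r = −0.063, −0.166, 0.374 and 0.375, and replicates 1 and 2 did not correlate best with their own number. With eBayes without trend the adjusted p was 0.0182 for *Meis3*, 0.0136 for *Trp63*, 0.0147 for *Acta2*, 0.00482 for *Vangl2* and 0.00683 for *Ptprc*. The block changed no other call of a factor. Between the control groups, where it paired samples of the same label number, *Pax8* had 0.51 (adjusted p = 0.103) and *Hoxb6* 0.35 (adjusted p = 0.224). The *Acta2* call was also lost with a pseudocount of 0.1 (adjusted p = 0.0105), a minimum mean of 50 (0.0145), quantile normalization (0.0109) and the label number series (0.0135).

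Genes past the thresholds among all tested were 295 for A83-01 in control organoids (955 at an adjusted p below 0.05, 655 with all 4 groups, 443 with the label number series, 49 to 312 with samples left out) and 970 for *Smad2/3* cKO (452 without trend, 2410 at an adjusted p below 0.05, 211 with the block, 280 to 992 with samples left out). They were 3 for *Smad2/3* cKO + A83-01 vs. control + A83-01 (1 without trend, 5 with all 4 groups, 0 with the block, 72 with the label number series, 0 to 4 with samples left out) and 72 for the difference between genotypes (208 at an adjusted p below 0.05, 39 to 77 with samples left out).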
